A study of Mus musculus with 47 samples.

Results

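The regions described here were H3K4me1 peaks of untreated control NMuMG cells (0 h) that overlapped neither an H3K4me3 peak nor an H3K27ac peak of the same cells. They are called H3K4me1-only peaks below, where "only" refers to those marks and to nothing else. They numbered 2174 of the 20179 H3K4me1 peaks on chromosomes 1 to 19, X and Y, or 10.8%. The remaining H3K4me1 peaks were 17421 that overlapped H3K4me3 and 584 that overlapped H3K27ac but not H3K4me3. NMuMG is an epithelial line from normal mouse mammary gland, used as a model of the epithelial to mesenchymal transition that transforming growth factor β1 (TGFβ1) induces. The groups were Pbrm1 KO and Control NMuMG cells with 24 or 48 h of 5 ng/ml TGFβ1 or with no treatment (0 h). Library names carry sg in both genotypes, and whether the KO cells were a clone or a pool is not given in the sources used here. Chromatin immunoprecipitation and sequencing was done for PHF10, ATF3, FOSL2 and FOSB in both genotypes, and for BRG1 (0 h) and the marks H3K4me3, H3K4me1, H3K27ac, H3K14ac and H3K18ac (0 and 48 h) in Control cells. There were 2 Control PHF10 libraries at each of 0 and 48 h, and 1 library in every other group. Whether the replicates came from separate cultures is not stated, so their spread may be technical.

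Monomethylation of lysine 4 of histone H3 is laid down at enhancers and on the flanks of promoters, where trimethylation of the same residue takes over towards the start site. At an enhancer, H3K4me1 with H3K27ac is the usual sign of activity, and H3K4me1 without acetylation has been described in stem cells and differentiated tissues as a primed or inactive state, often also marked by H3K27me3, which was not profiled here. PBRM1 and PHF10 belong to PBAF, one of the SWI/SNF chromatin remodelling complexes, whose ATPase is BRG1. ATF3, FOSL2 and FOSB are bZIP transcription factors, and pairs of FOS and JUN proteins make up AP-1.

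The H3K4me1-only peaks were selected by peak calls, not by signal, and the values that chose them are given as a description. Their H3K4me1 fold enrichment, which the authors computed for each peak over its input library, had a median of 3.18 and ran between 1.94 and 6.65. The median was 3.33 in the H3K27ac class and 3.48 in the H3K4me3 class. The median −log10 q was 5.01 in the H3K4me1-only peaks, against 7.87 and 9.66 in those classes. H3K4me1-only peaks were also short, with a median width of 270 bp against 297 bp and 356 bp in those classes. Among the peaks nearest the limit of the rule, 3 were kept at 83, 142 and 149 bp from the closest H3K4me3 or H3K27ac peak, and 3 were left out for overlaps of 20, 38 and 47 bp. The median distance of an H3K4me1-only peak to the closest 0 h H3K4me3 or H3K27ac peak was 5603 bp, and 300 lay within 1 kb of one. At 0 h, 44 of 53 epithelial genes had H3K4me3 no more than 2 kb from either gene end, against 10 of 25 marker genes of other cell types, and H3K27ac was there at 41 of 53 against 6 of 25. Mesenchymal and TGFβ response genes stood close to the epithelial ones, with H3K4me3 at 51 of 66 and H3K27ac at 43 of 66.

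Most H3K4me1-only peaks lay inside genes and away from their ends. A protein-coding gene span held 1661 of them (76.4%), against 68.3% of the H3K27ac class and 76.1% of the H3K4me3 class. Within 2 kb of a gene end lay 503 (23.1%), against 20.2% of the H3K27ac class and 44.5% of the H3K4me3 class. RefSeq promoter windows run over 250 bases before and 50 after a start, and 58 H3K4me1-only peaks overlapped one of 21263 such windows. The windows cover 17492 of 21887 protein-coding genes, so 58 is a lower count. The overlap was not counted for the other H3K4me1 peaks, so no background is given. The 8 windows below show the range of what followed at 48 h, with the bases inside the H3K4me1-only peak in capitals and the rest in lower case. Sequences and positions are RefSeq GRCm38.p6 (mm10), read 5′ to 3′ on the strand of the gene. The files do not state whether their peak starts count from 0 or 1, so the edge of the capitals is uncertain by 1 base. Dysf encodes dysferlin, a membrane repair protein, and Slc15a1 an intestinal peptide transporter. Both peaks gained PHF10, ATF3, H3K14ac and H3K4me3 calls. Bmp4, a ligand of the TGFβ superfamily, gained ATF3, H3K14ac and H3K4me3. Aqp1, a water channel, had BRG1 at 0 h and gained ATF3 and H3K14ac. Smarcd2, a SWI/SNF subunit gene, and C1qtnf6, a gene for a secreted protein with a C1q domain, gained PHF10 and none of those other calls. Hdac7, a class IIa histone deacetylase gene, and Pdlim3, a gene for an actin-associated PDZ and LIM protein, gained none of the 4.
Dysf, chr6:84019136-84019435, plus strand: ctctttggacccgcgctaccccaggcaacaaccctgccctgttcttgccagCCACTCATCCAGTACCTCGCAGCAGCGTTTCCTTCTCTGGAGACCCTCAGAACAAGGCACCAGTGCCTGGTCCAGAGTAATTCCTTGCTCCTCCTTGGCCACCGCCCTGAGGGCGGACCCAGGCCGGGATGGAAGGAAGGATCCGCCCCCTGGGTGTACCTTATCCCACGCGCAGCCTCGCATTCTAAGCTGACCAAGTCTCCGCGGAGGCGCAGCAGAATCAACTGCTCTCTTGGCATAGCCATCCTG
Slc15a1, chr14:121505205-121505504, minus strand: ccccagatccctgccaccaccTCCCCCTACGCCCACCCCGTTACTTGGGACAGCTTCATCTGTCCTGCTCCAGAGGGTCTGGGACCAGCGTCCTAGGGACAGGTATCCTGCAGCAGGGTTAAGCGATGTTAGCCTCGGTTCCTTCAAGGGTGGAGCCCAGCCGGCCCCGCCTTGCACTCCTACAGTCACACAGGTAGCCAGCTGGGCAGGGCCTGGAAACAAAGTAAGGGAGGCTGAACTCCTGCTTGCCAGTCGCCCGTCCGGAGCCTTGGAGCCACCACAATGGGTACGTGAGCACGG
Bmp4, chr14:46390620-46390919, minus strand: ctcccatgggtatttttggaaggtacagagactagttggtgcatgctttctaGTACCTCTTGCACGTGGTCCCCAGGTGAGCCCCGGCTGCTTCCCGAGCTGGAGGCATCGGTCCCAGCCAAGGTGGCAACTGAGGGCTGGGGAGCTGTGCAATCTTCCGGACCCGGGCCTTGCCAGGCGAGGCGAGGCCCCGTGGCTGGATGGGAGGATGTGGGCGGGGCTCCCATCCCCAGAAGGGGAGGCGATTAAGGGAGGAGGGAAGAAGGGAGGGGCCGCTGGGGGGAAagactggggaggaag
Aqp1, chr6:55336049-55336348, plus strand: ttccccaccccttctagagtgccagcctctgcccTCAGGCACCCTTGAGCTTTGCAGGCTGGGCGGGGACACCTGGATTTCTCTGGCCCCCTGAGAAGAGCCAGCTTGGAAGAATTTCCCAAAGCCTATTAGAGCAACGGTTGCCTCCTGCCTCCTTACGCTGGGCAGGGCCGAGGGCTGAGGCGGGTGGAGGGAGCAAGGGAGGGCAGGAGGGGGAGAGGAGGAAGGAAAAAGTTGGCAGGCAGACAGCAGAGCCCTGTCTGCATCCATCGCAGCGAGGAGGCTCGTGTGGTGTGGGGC
Smarcd2, chr11:106267583-106267882, minus strand: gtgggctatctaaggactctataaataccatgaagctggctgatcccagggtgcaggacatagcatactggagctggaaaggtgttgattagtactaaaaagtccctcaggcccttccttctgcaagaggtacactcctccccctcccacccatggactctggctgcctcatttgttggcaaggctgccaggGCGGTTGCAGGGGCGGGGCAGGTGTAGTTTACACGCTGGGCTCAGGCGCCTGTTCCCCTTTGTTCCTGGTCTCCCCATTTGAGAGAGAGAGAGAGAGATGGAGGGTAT
C1qtnf6, chr15:78529602-78529901, minus strand: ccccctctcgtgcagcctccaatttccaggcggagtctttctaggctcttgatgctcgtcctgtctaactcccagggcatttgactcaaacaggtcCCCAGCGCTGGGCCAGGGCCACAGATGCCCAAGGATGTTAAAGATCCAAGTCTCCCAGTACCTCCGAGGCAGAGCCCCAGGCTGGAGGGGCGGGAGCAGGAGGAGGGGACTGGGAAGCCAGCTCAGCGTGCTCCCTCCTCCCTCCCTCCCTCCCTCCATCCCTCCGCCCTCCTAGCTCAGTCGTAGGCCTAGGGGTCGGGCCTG
Hdac7, chr15:97814814-97815113, minus strand: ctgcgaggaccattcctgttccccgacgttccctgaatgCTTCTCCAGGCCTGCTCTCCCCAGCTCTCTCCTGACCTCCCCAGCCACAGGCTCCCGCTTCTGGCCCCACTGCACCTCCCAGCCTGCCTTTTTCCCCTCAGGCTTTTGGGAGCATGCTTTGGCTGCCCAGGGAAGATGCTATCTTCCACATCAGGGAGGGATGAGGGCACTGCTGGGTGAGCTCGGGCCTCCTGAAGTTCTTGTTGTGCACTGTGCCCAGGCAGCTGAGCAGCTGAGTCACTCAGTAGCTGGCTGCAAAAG
Pdlim3, chr8:45885237-45885536, plus strand: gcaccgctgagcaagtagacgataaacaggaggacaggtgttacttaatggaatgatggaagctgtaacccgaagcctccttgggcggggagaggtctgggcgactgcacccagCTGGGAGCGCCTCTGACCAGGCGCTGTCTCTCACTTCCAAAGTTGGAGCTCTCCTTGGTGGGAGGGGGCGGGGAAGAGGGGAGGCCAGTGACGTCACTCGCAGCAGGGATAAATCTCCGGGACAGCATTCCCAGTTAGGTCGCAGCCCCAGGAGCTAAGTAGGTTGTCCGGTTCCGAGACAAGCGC

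The promoter windows were searched for TGANTCA, the AP-1 site, and TGACGTCA, the site of cAMP response elements that ATF proteins can bind. Both read the same on either strand, and neither can lie inside the other. TGANTCA occurred in 2 of 62 windows that an H3K4me1-only peak overlapped (3.23%), those of Hdac7 and C1qtnf6, against 6.99% of all windows. The Hdac7 match lay within the H3K4me1 peak and the C1qtnf6 match outside it. TGACGTCA also occurred in 2 of 62, those of Pdlim3 and Csnk1g2, a casein kinase gene, against 2.23% of all windows. The 41 windows whose peak gained ATF3 held neither motif. The median GC content was 58.0% in the overlapped windows and 56.3% in all. Sequence outside promoter windows was not used here, so the distal peaks, which are most of them, were not searched.

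At 48 h of TGFβ1, Control H3K4me1-only peaks acquired PHF10, ATF3, H3K14ac and H3K4me3 calls in large numbers and H3K27ac, H3K18ac and FOSL2 calls almost nowhere. Over all H3K4me1 peaks ATF3 and H3K14ac gains were more frequent, at 92.7% and 78.9% against 61.4% and 42.0%. H3K27ac and H3K18ac gains were also more frequent there, at 0.951% and 11.3% against 0.276% each. PHF10 and H3K4me3 gains were rarer there, at 30.7% and 3.04% against 50.3% and 24.0%. FOSL2 gains were about as rare, at 0.178% against 0.138%. A gain below means a peak at 48 h where none was called at 0 h, at an overlap of 1 bp. For PHF10 it means a peak in both 48 h replicates and in neither 0 h replicate. Intervals in brackets are exact Clopper-Pearson 95% intervals and cover counting error only. The time comparisons other than PHF10 had 1 library in each arm and no test. Each background share is the same gain over all 20179 H3K4me1 peaks.

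**Figure D1:**
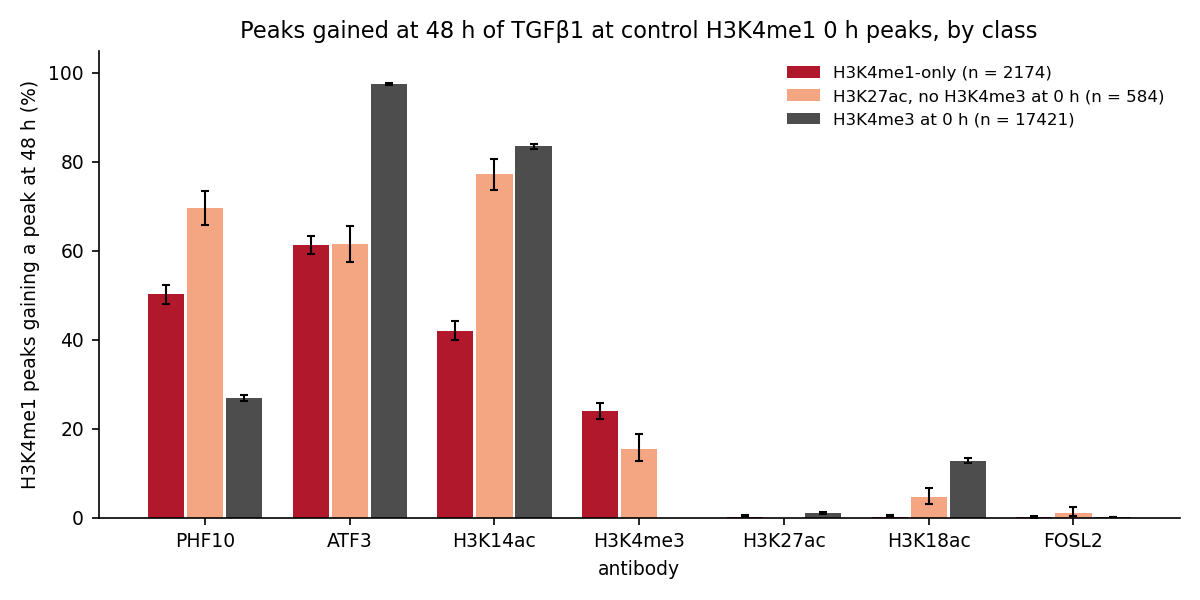
Share of H3K4me1 peaks gaining each peak at 48 h (y axis, %), by antibody (x axis) and class of H3K4me1 peak at 0 h, with exact 95% intervals of counting error. The H3K4me1-only bars reach 61.4% for ATF3 and 50.3% for PHF10 and stay at 0.276% for H3K27ac; bars that the class definition fixes at 0 are left out.

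PHF10 was gained at 1093 H3K4me1-only peaks, or 50.3% (48.2 to 52.4), with a background of 30.7%. The share was 69.7% in the H3K27ac class and 26.9% in the H3K4me3 class, where many peaks already had PHF10 at 0 h. By library, H3K4me1-only peaks with PHF10 numbered 1138 and 1959 in the 48 h replicates, against 4 and 21 in the 0 h replicates. The ranges did not overlap, and the 48 h replicates themselves stood far apart. The PHF10 lists held 43549 and 102434 peaks in 48 h replicates 1 and 2, against 11285 and 14731 at 0 h. The background for a call was 67.7% and 94.3% of all H3K4me1 peaks at 48 h, against 29.9% and 38.5% at 0 h. On the log2 scale the number averaged 10.54 ± 0.55 at 48 h and 3.20 ± 1.69 at 0 h (SD, n = 2 each), a difference of 7.35. The exact two-sided permutation test gave p = 0.333, the smallest that 2 libraries against 2 allow. Of the 1138 peaks of 48 h replicate 1, 97.1% were also in replicate 2, against 90.1% of all H3K4me1-only peaks. Of the 1959 of replicate 2, 56.4% were in replicate 1, against 52.3% of all H3K4me1-only peaks. With 48 h replicate 2 alone the gain was 89.1% of H3K4me1-only peaks, and with replicate 1 alone it was 51.8%.

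PHF10 was present at intermediate numbers at 24 h. The single 24 h library called 608 H3K4me1-only peaks (background 77.6%), and 57.4% of these were also called in 48 h replicate 1 and 92.6% in replicate 2. Those replicates called 52.3% and 90.1% of all H3K4me1-only peaks. Few of the 48 h PHF10 calls reached a high significance. With a −log10 q of at least 5 at 48 h, 20 H3K4me1-only peaks gained PHF10, and 30 did when all 4 lists were reduced to the length of the shortest by −log10 q. No H3K4me1-only peak gained a PHF10 peak of fold 5 or more in both replicates. These limits were not applied to the other H3K4me1 peaks, so no background is given. Folds were low throughout the 48 h PHF10 lists. Their medians in replicates 1 and 2 were 2.62 and 2.83 at H3K4me1-only peaks and 2.88 and 3.03 at the other H3K4me1 peaks. Elsewhere in the genome they were 3.05 and 2.90.

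ATF3 was gained at 1335 H3K4me1-only peaks, or 61.4% (59.3 to 63.5), with a background of 92.7%. That is close to the 61.6% of the H3K27ac class and below the 97.6% of the H3K4me3 class. Control libraries called ATF3 at 0 H3K4me1-only peaks at 0 h (background 0.0198%), 27 at 24 h (background 1.49%) and 1335 at 48 h. A count of 0 of 2174 allows a share of up to 0.170%. Of the 27 peaks at 24 h, 22 were called again at 48 h. The ATF3 peaks at H3K4me1-only sites had a median fold of 5.21, against 7.97 at the other H3K4me1 peaks and 6.08 elsewhere in the genome. The Control ATF3 lists held 45716 peaks at 48 h and 20 at 0 h, and reduced to 20 peaks the 48 h list reached 0 H3K4me1-only peaks.

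Of the acetylations, H3K14ac was gained at many of these sites, and H3K27ac and H3K18ac at few. The H3K14ac gain was seen at 914 H3K4me1-only peaks, or 42.0% (40.0 to 44.1), with a background of 78.9%. The share was 77.2% in the H3K27ac class and 83.5% in the H3K4me3 class. None of the 2174 had H3K14ac at 0 h (background 5.92%), and the H3K14ac lists held 35270 peaks at 48 h and 3453 at 0 h. At equal list length 1 H3K4me1-only peak gained it. H3K27ac was gained at 6 H3K4me1-only peaks, or 0.276% (0.101 to 0.600), with a background of 0.951%, and the share in the H3K4me3 class was 1.07%. Peaks with H3K27ac at 0 h cannot gain it, which lowers both of these comparison shares. Such peaks were the whole H3K27ac class and 54.1% of the H3K4me3 class. The H3K27ac lists held 15962 peaks at 48 h and 20507 at 0 h. H3K18ac was also gained at 6 (0.276%), with a background of 11.3%, and 4 H3K4me1-only peaks had had it at 0 h (background 1.36%). H3K18ac gains were 4.62% in the H3K27ac class and 12.9% in the H3K4me3 class.

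The rule fixed the methylation calls of the sites at 0 h, so their values at 48 h are a description. The H3K4me1 lists held 12863 peaks at 48 h and 20179 at 0 h. H3K4me1 itself was called again at 48 h at 36 H3K4me1-only peaks, or 1.66%, with a background of 49.2%. It was called again at 4.28% of the H3K27ac class and 56.6% of the H3K4me3 class. H3K4me3, absent by rule at 0 h, was called at 522 H3K4me1-only peaks at 48 h, or 24.0% (22.2 to 25.9), with a background of 3.04%. The background is low because the H3K4me3 class cannot gain it, and the share in the H3K27ac class was 15.6%. The gained H3K4me3 peaks were weak for their list, with a median fold of 3.59 and a median −log10 q at percentile 11.3 of that list. H3K4me1 at 48 h was called at 13 of these 522.

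FOSL2 was gained at 3 H3K4me1-only peaks, or 0.138% (0.0285 to 0.403), with a background of 0.178%. The share in the H3K27ac class was 1.20%, and none of the 2174 had FOSL2 at 0 h (background 0.0149%). FOSB was called at none of them at 48 h in KO cells (background 0.0149%) or in Control cells (background 0.0248%), with lists of 31 and 188 peaks. FOSL2 and FOSB cells were crosslinked with formaldehyde only, and ATF3 and PHF10 cells with disuccinimidyl glutarate first. The fixation and the factor cannot be told apart.

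BRG1 at 0 h was called at 125 H3K4me1-only peaks, or 5.75%, with a background of 14.7%, against 38.9% of the H3K27ac class and 15.0% of the H3K4me3 class. ATF3 was gained at 46.4% (37.4 to 55.5) of the H3K4me1-only peaks with BRG1 at 0 h, against 62.3% (60.2 to 64.4) of those without. H3K4me3 was gained at 10.4% of those with BRG1, against 24.8% of those without, and H3K14ac at 42.4% against 42.0%. For PHF10 the shares were 58.4% (49.2 to 67.1) with BRG1 and 49.8% (47.6 to 52.0) without. No test was made of these differences. Of the 3 peaks that gained FOSL2, 2 had BRG1 at 0 h.

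The 48 h peaks were centred on the H3K4me1-only peaks. The distance between the H3K4me1 summit at 0 h and the 48 h summit had a median of 31 bp for ATF3, 29 bp for H3K14ac and 28 bp for H3K4me3. In the same order the medians were 24, 24 and 26 bp in the H3K27ac class and 41, 41 and 35 bp in the H3K4me3 class. Summits were paired for overlapping peaks only, which keeps these distances short. The middle base of an H3K4me1-only peak lay in an ATF3 peak at 59.4% of sites, against 6.03% at a position 5 kb before it. For H3K14ac the values were 40.2% and 4.0%, and for H3K4me3 23.3% and 4.55%. For PHF10 they were 46.7% and 9.02% in replicate 1, and 88.6% and 22.9% in replicate 2. BRG1 at 0 h showed no such rise between these positions, at 4.37% and 4.51%. It was lower beside the middle, at 3.36% and 3.17% at 500 bp before and after it. H3K27ac at 48 h covered the middle base of 0.230% of sites and the position 5 kb before it of 1.89%. The rule had removed peaks with H3K27ac at 0 h, but not their surroundings.

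**Figure D2:**
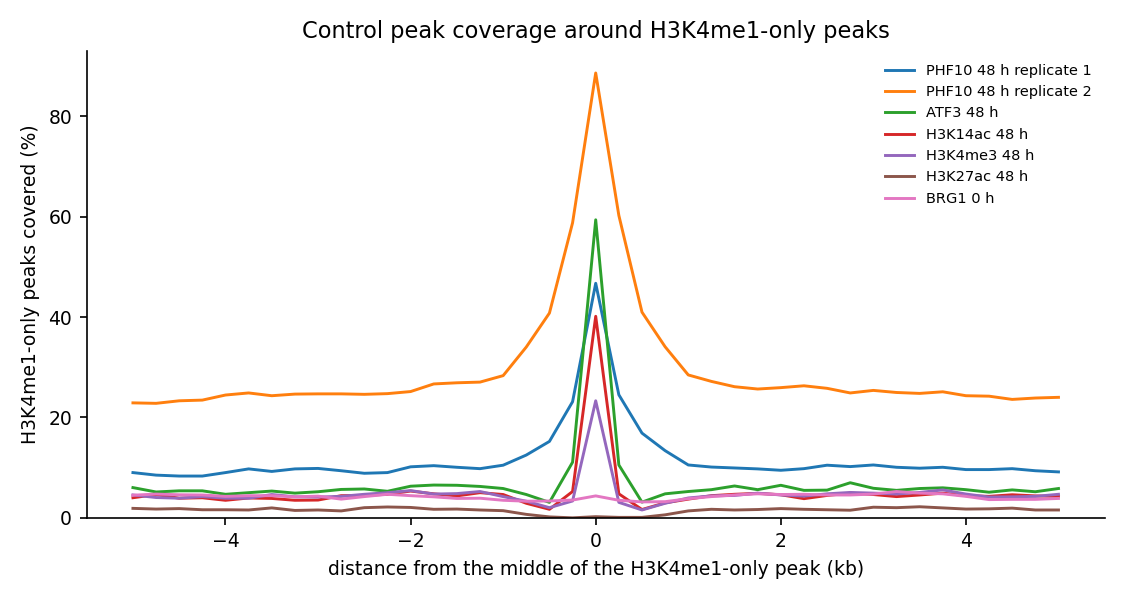
Share of the 2174 H3K4me1-only peaks (y axis, %) at which a position at a given distance from the middle of the peak (x axis, kb) lay inside a Control peak of each list. PHF10 replicate 2 reaches 88.6% and ATF3 59.4% at the centre. BRG1 at 0 h stays between 3.17% and 5.24% and is at 4.37% at the centre.

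The gains combined in many ways. Of the 2174 H3K4me1-only peaks, 172 gained PHF10, ATF3, H3K14ac and H3K4me3 together (7.91%), against 8.56% of the H3K27ac class and 1.10% of all H3K4me1 peaks, most of which have H3K4me3 at 0 h and cannot gain it. PHF10, ATF3 and H3K14ac without H3K4me3 were gained at 233 (10.7%), against 29.8% of the H3K27ac class and 21.8% of all. PHF10 and ATF3 alone were gained at 241 (11.1%), against 4.97% of the H3K27ac class and 4.29% of all. ATF3 alone was gained at 243 (11.2%), against 2.05% of the H3K27ac class and 11.7% of all. That share was thus close to the one over all H3K4me1 peaks. PHF10 alone was gained at 240 (11.04%), against 8.39% of the H3K27ac class and 1.62% of all. H3K14ac alone was gained at 76 (3.496%), against 7.53% and 1.54% in the same order. H3K4me3 alone was gained at 32 (1.47%), against 0% and 0.159%, and most of all H3K4me1 peaks cannot gain it. None of the 4 was gained at 347 (16.0%), against 4.97% of the H3K27ac class and 2.50% of all. H3K14ac was gained at 52.7% of the peaks that gained ATF3, against 25.1% of those that did not. It was gained at 48.4% of the peaks that gained PHF10, against 35.6% of those that did not. H3K4me3 was gained at 33.9% of the peaks that gained ATF3, against 8.34% of the others. These pairs of gains were compared within the H3K4me1-only peaks alone. They have no background and are not read as particular to these peaks. ATF3 and PHF10 cells were fixed in another way than those of the marks. Which input each list was called against is not given in the sources used here, and the part of a shared input in the counts was not tested. H3K4me1-only peaks had a peak in a median of 5 of the 31 other lists, against 7 in the H3K27ac class and 10 in the H3K4me3 class. They had one in none at 30 sites, against 0 in either other class, whose definition requires one.

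**Figure D3:**
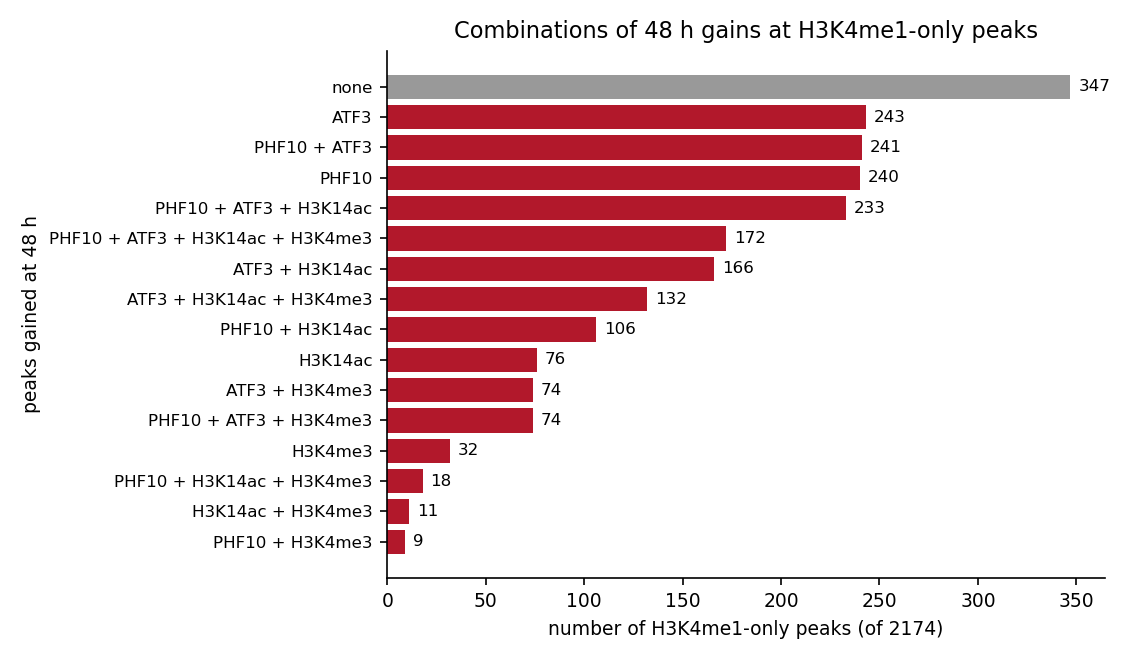
Number of H3K4me1-only peaks (x axis, of 2174) with each combination of PHF10, ATF3, H3K14ac and H3K4me3 gains at 48 h (y axis). The largest single class is the 347 with none of the 4, followed by 243 with ATF3 alone and 241 with PHF10 and ATF3.

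The strength of H3K4me1 at 0 h went with the ATF3 and H3K14ac gains. In 4 groups of equal size, ordered by −log10 q with the lowest first, ATF3 was gained at 45.0%, 58.0%, 65.2% and 77.4%. H3K14ac was gained at 28.1%, 36.6%, 42.0% and 61.4%. The part of H3K4me1 strength in the differences between classes was not tested. PHF10 was gained at 46.0%, 52.7%, 48.8% and 53.7%, with no steady order. The PHF10 shares differed with distance. PHF10 was gained at 69.3% of the 300 H3K4me1-only peaks under 1 kb from a 0 h H3K4me3 or H3K27ac peak. It was gained at 57.0% between 1 and 5 kb, 48.3% between 5 and 20 kb, and 30.7% at 20 kb or more. In the same order of distance, ATF3 gains were 68.3%, 61.0%, 57.0% and 63.7%, and H3K14ac gains 44.3%, 39.5%, 42.7% and 43.6%. By position, PHF10 was gained at 57.1% of H3K4me1-only peaks within 2 kb of a gene end, 51.5% of those deeper inside genes and 39.7% of those outside genes. H3K14ac had no such order, at 41.4%, 39.3% and 50.1%. Width moved with the PHF10 gain too, at 63.1% of peaks over 300 bp and 43.5% of shorter ones, and its part in the distance order was not tested.

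**Figure D4:**
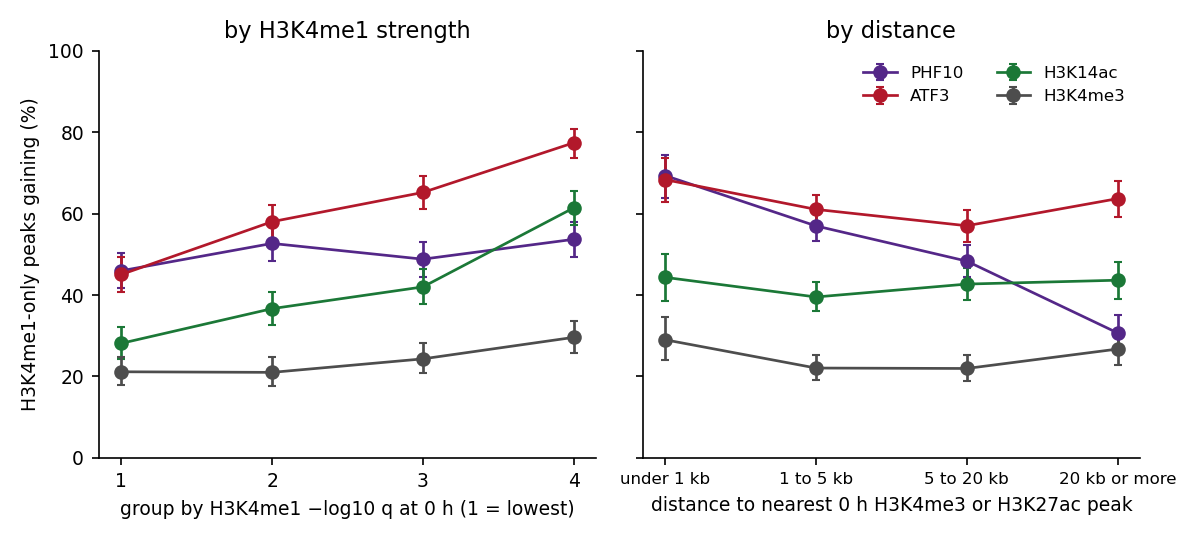
Share of H3K4me1-only peaks gaining PHF10, ATF3, H3K14ac or H3K4me3 at 48 h (y axis, %) by group of H3K4me1 −log10 q at 0 h (left) and by distance to the nearest 0 h H3K4me3 or H3K27ac peak (right), with exact 95% intervals of counting error. ATF3 and H3K14ac climb with strength to 77.4% and 61.4%, and PHF10 declines with distance to 30.7%.

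Pbrm1 KO cells were profiled for the factors only, with 1 library at each time and no test. At 48 h, PHF10 was called at 2005 H3K4me1-only peaks in KO cells (background 95.4%), against 1138 and 1959 in the Control replicates. At 0 h the numbers were 4 in KO cells (background 31.1%), against 4 and 21 in Control cells. The KO value lay 46 above the higher Control replicate at 48 h, less than the gap between the Control replicates. ATF3 was called at 1510 H3K4me1-only peaks in KO cells at 48 h (background 76.2%), against 1335 in Control cells (background 92.7%). Over all H3K4me1 peaks the KO share was thus below the Control share, the reverse of the order at H3K4me1-only peaks. The H3K27ac class had the order of the H3K4me1-only peaks, at 73.8% in KO and 61.6% in Control cells. The H3K4me3 class had the other order, at 77.1% and 97.7%. The KO and Control calls shared 954 peaks, which were 63.2% of those in KO cells and 71.5% of those in Control cells. Over all H3K4me1-only peaks the shares called were 69.5% in KO cells and 61.4% in Control cells, so a peak called in one genotype was called in the other at nearly the rate of the whole set. At 24 h the ATF3 numbers were 0 in KO cells (background 0.0644%), against 27 in Control cells (background 1.49%). The KO lists were longer at 48 h, with 144513 ATF3 peaks against 45716 in Control cells, and the number of reads behind each is unknown.

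**Figure D5:**
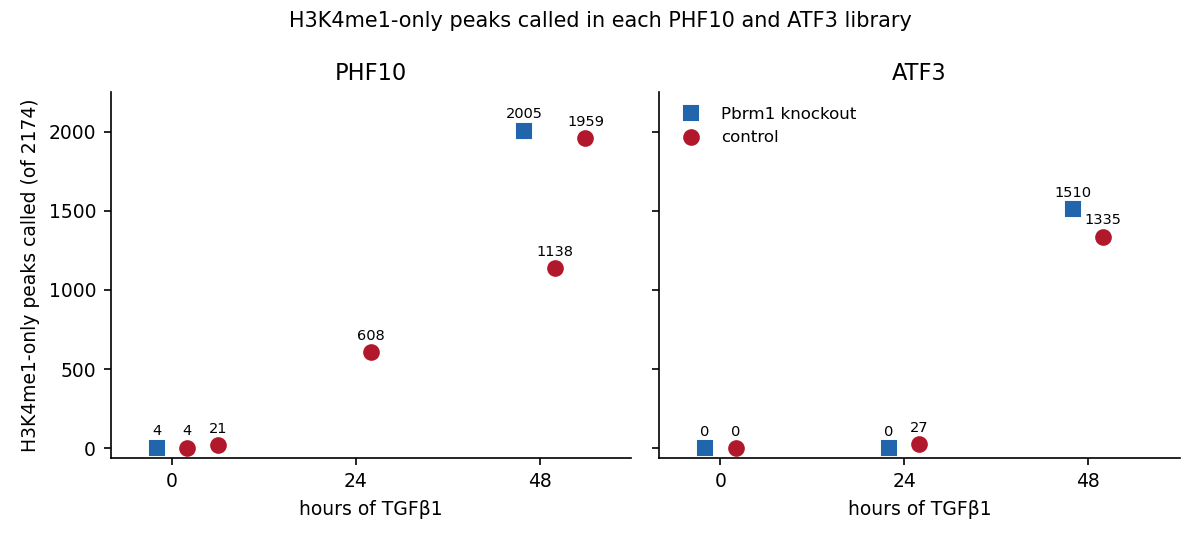
Number of H3K4me1-only peaks called (y axis, of 2174) in each PHF10 and ATF3 library by hours of TGFβ1 (x axis), with Pbrm1 KO cells as squares and Control cells as circles, 1 symbol a library, set apart sideways within a time. At 48 h PHF10 stands at 2005 in KO cells, against 1138 and 1959 in Control cells, and ATF3 at 1510 against 1335.

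FOSL2 at 48 h was called at 7 H3K4me1-only peaks in KO cells (background 0.382%), against 3 in Control cells (background 0.183%). All 3 Control peaks were among the 7. The strongest of these lay in Tbc1d16, which encodes a GTPase-activating protein for Rab proteins, with FOSL2 folds of 8.66 in KO and 7.03 in Control cells. The second lay in Col17a1, which encodes collagen XVII of hemidesmosomes, with folds of 5.60 in KO and 5.36 in Control cells. The third lay 13105 bp from the predicted gene Gm3371, with folds of 3.66 in KO and 4.0 in Control cells. The 4 called in KO cells but not in Control cells were assigned to Septin9 (fold 12.9), Mrgprf (11.8), Shq1 (7.86) and Nrxn2 (6.28).

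The 6 H3K4me1-only peaks that gained H3K27ac are named by the gene they lie in or by the nearest gene end. The strongest lay 37255 bp from Camk2n1, which encodes an inhibitor of CaM kinase II, with an H3K27ac fold of 14.2 at 48 h. It also gained H3K18ac (10.0), H3K14ac (6.21) and ATF3 (6.85), and kept an H3K4me1 call at 48 h (12.9). PHF10 was called there in 0 h replicate 1 and in neither 48 h replicate. The second lay 44923 bp from Nfatc1, a calcineurin-dependent transcription factor, with an H3K27ac fold of 6.58. It gained H3K18ac (5.61), H3K14ac (14.5), ATF3 (6.20) and PHF10 (2.89 and 3.38 in the 48 h replicates). The peaks at Camk2n1 and Nfatc1 were the only ones to gain both H3K27ac and H3K18ac. A peak in the zinc finger gene Zfp236 (4.89) gained none of PHF10, ATF3, H3K14ac and H3K4me3. A peak 15722 bp from Myl12b, a myosin light chain gene, had an H3K27ac fold of 4.12 and gained ATF3 and H3K4me3. A peak in Unc13a, a gene of synaptic vesicle priming, had 3.73 and gained ATF3, H3K14ac and PHF10. The last lay 4763 bp from Cldn4, which encodes a claudin of epithelial tight junctions. Its H3K27ac fold of 2.50 was the lowest of the 6, BRG1 was there at 0 h (2.63), and H3K14ac (8.48) and PHF10 (3.78 and 3.04) were gained. No H3K4me1-only peak gained H3K27ac, ATF3 and FOSL2 together.

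The remaining H3K18ac gains lay in Wwc2 (fold 5.29), a WWC family gene linked to the Hippo pathway, in the Arf GTPase-activating protein gene Agap1 (4.75), near the chaperone gene Dnajb12 (2.40) and in Tbc1d16 (2.12). The Tbc1d16 peak is a different one from that with FOSL2. The strongest H3K14ac gain lay in Fignl2, an AAA ATPase gene, with a fold of 61.4 beside an H3K4me3 fold of 83.5 at 48 h. It lay 710 bp from a 0 h H3K27ac peak and 237 bp from a 0 h H3K4me3 peak. The next lay in Chst14, a dermatan sulfate sulfotransferase gene, with 22.5 for H3K14ac and 39.3 for H3K4me3, and 151 bp from a 0 h H3K4me3 peak. The peak in Wwc2 (15.8), that near Nfatc1 and that in Unc13a (13.6) followed, and these 3 lay over 5 kb from any 0 h H3K4me3 peak.

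For PHF10 the highest mean folds over both 48 h replicates were near Ttc17 (4.81 and 4.96) and in Myof (4.12 and 5.27), the myoferlin gene. They were followed by peaks in Rab23 (6.04 and 3.23), a small GTPase gene of Hedgehog signalling, Ralgapa1 (4.03 and 4.54), a Ral GTPase-activating protein gene, and Ocln (4.71 and 3.70), the occludin gene of tight junctions. The Ocln peak also gained ATF3 (9.82) and H3K14ac (12.7). The highest ATF3 folds lay in Ap3b1 (14.8), an AP-3 adaptor subunit gene, Camta1 (12.8), a calmodulin-binding transcription activator gene, the deubiquitinase gene Usp9x (12.6), Mettl7a1 (12.5) and the complement gene C7 (12.5). None of these 5 gained PHF10 by the rule of both replicates, although all had a PHF10 peak in 48 h replicate 2.

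Counted by gene, 2212 of 21887 protein-coding genes, a background of 10.1%, had an H3K4me1-only peak within the span or 10 kb to either side. The median span was 20.3 kb among them and 17.2 kb over all protein-coding genes, and longer genes have more room for a peak. Gse1 had the most, with 16, of which 13 gained PHF10, 9 ATF3 and 7 H3K14ac. Macrod1, an ADP-ribose hydrolase gene, had 13, all gaining PHF10, and Flrt1, which lies inside it, shared 7 of these. Nfix, a nuclear factor I gene, had 7, and all of these gained PHF10 and H3K14ac. Over all H3K4me1-only peaks the gains were 50.3% for PHF10, 61.4% for ATF3 and 42.0% for H3K14ac. In PHF10 48 h replicate 1, 1111 peaks covered 1138 H3K4me1-only peaks, so neighbours can share 1 PHF10 peak. Among the chromosomes, the H3K4me1-only share of H3K4me1 peaks was highest on chromosome 19 (16.5%) and lowest on X (5.72%), leaving out Y with 6 H3K4me1 peaks.

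Among mesenchymal and TGFβ response genes, 15 of 66 (22.7%) had an H3K4me1-only peak. At 13 of the 15 a peak gained ATF3, at 10 PHF10 and at 9 H3K14ac, and at none H3K27ac (background of 0.0183% of genes), H3K18ac or FOSL2 (0.0137% each). Of all 2212 genes with an H3K4me1-only peak, 70.0% had an ATF3 gain, 58.4% a PHF10 gain and 43.2% an H3K14ac gain. The median span of this list was 28.2 kb. A peak in Snai1, the EMT transcription factor gene, gained PHF10, ATF3, H3K14ac and H3K4me3, as did one in the gelatinase gene Mmp9 and one in Cnn2, a calponin gene. Peaks in Smad7, which encodes an inhibitor of TGFβ signalling, and Runx1 gained PHF10, ATF3 and H3K14ac. The TGFβ1 gene itself, Tgfb1, had one in its span that gained PHF10 and ATF3, and one 2719 bp away that gained all 4. The peak in Pdgfrb gained nothing.

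Among epithelial genes, 11 of 53 (20.8%) had an H3K4me1-only peak, with ATF3 gained at 10 of the 11, PHF10 at 9 and H3K14ac at 8. These included both peaks in Ocln, both in Grhl3 and both in St14, the matriptase gene, all of which gained ATF3. Cldn4 was the only gene of the 10 lists with an H3K27ac gain, which 4 protein-coding genes had in all. Over all protein-coding genes the shares with a gained peak were 7.07% for ATF3, 5.90% for PHF10 and 4.37% for H3K14ac. The corresponding shares were 19.7%, 15.2% and 13.6% in the mesenchymal list, and 18.9%, 17.0% and 15.1% in the epithelial list. The lists were drawn up with earlier results of these data known, and no test was made of them.

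In the other lists the shares with an H3K4me1-only peak were 9 of 28 SWI/SNF subunit genes (32.1%), 14 of 58 WNT, FGF, BMP, EGF and Notch signalling genes (24.1%), and 9 of 52 actin and focal adhesion genes (17.3%). They were 4 of 25 Hippo pathway genes (16.0%), 4 of 26 AP-1 and ATF genes (15.4%), 3 of 20 housekeeping genes (15.0%), 3 of 25 markers of other cell types (12%) and 7 of 84 developmental transcription factor genes (8.33%). PHF10 was gained at 7 of the 9 SWI/SNF genes, against 58.4% of all genes with an H3K4me1-only peak. Among the 7 were Smarcd2, Bcl7c and Dpf3. PHF10 was gained at none of the 4 AP-1 and ATF genes, Atf5, Fos, Fosb and Mafg, and with so few genes neither count is read as particular to its list. The peaks in Atf5 and Fosb gained ATF3, H3K14ac and H3K4me3, and the peak in Fos gained none of the 4. All 3 peaks in Notch1, the receptor gene, gained ATF3 alone. Of the miRNA hairpins, H3K4me1-only peaks overlapped Mir7082, which gained all 4, Mir7068, which gained PHF10, and Mir301b, which gained none.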

How the data were processed

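Chromatin immunoprecipitation peaks of NMuMG cells were taken as the authors deposited them, 1 list a library, in 32 lists, with 15 input samples not used here. Fixation, per the labels' protocols, was disuccinimidyl glutarate and then formaldehyde for ATF3, BRG1 and PHF10, and formaldehyde alone for the rest. MACS3 3.0.0a7 stands in the submitters' processing notes beside Bowtie2 2.3.3, fastp 0.19.5, deepTools 3.5.1, Partek 11.0.24.0325 and the mm10 build, and settings are not given in the sources used here. The deposited pileup signal of a peak was not used. Deposited −log10 q values ranked and filtered peaks within a list, and the deposited fold enrichment over input described them. PHF10 and BRG1 lists reach down to a −log10 q near 1.0 and have no summit, and the others reach 1.3. Read depth is unknown, so a longer list may come from more reads.

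Only chromosomes 1 to 19, X and Y were kept, and peaks were compared at an overlap of 1 bp (Python 3.11, pandas, NumPy and SciPy), in code checked on simulated intervals. Intervals of shares are exact Clopper-Pearson at 95%, and cover counting error only since neighbouring peaks are not independent. PHF10 numbers were compared by an exact two-sided permutation test. Genes were the 21887 protein-coding genes of RefSeq GRCm38.p6, whose table gives spans without strand, so both gene ends were used and parts of genes were not distinguished. The promoter table, used for sequences only, holds 17492 of them and no gene of chromosome 18, where 511 of them lie. The rule, the 10 gene lists and the comparisons were chosen with earlier results of these data known. Genes were named by the 5 highest folds for each gain, by an H3K27ac or FOSL2 gain at a gene of the Hippo, AP-1 and ATF, epithelial or mesenchymal list, and by the 5 largest numbers of H3K4me1-only peaks. A gene that the rule names is not reported here. A part for joint H3K27ac, ATF3 and FOSL2 gains found none. Other list genes, the 8 promoters and the KO FOSL2 peaks were named after their values were seen. Alternatives were other q, fold, overlap, distance and list-length limits, each PHF10 replicate left out and the replicate number as a block.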

Additional observations from a re-analysis of the deposited data

Results flagged for a closer look

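The number of H3K4me1-only peaks with ATF3 differed in opposite directions between KO and Control cells at the 2 times of TGFβ1. At 24 h the KO minus Control difference was -27 peaks, with 0 in KO cells and 27 in Control cells. At 48 h it was 175 peaks, with 1510 in KO cells and 1335 in Control cells. Over all H3K4me1 peaks ATF3 was lower in KO cells at both times, at 0.0644% in KO and 1.49% in Control cells at 24 h, and at 76.2% in KO and 92.7% in Control cells at 48 h. The H3K27ac class was higher in KO cells at 48 h, like the H3K4me1-only peaks, at 73.8% against 61.6%. The H3K4me3 class was lower, at 77.1% against 97.7%. Each arm is 1 library, and the difference between the times was not tested. The ATF3 lists held 69 peaks in KO and 2004 in Control cells at 24 h, and 144513 in KO and 45716 in Control cells at 48 h, and the part of list length in the difference was not tested.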

How the results depend on the processing

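The H3K4me1-only set numbered 2174 as reported, 1099 with H3K4me1 peaks of −log10 q of at least 5, 2209 when only an overlap of 50% of the shorter peak removed a peak, and 1874 over 1 kb from 0 h H3K4me3 and H3K27ac peaks. Requiring a −log10 q of at least 5 at 48 h gave gains of 33.6% for H3K14ac, 52.5% for ATF3 and 0.920% for PHF10. A fold of at least 5 gave 22.6% for H3K14ac, 34.1% for ATF3, 0.0920% for H3K27ac and 0% for PHF10. Lists of equal length gave 0.0460% for H3K14ac, 1.38% for PHF10, 0% for ATF3 and 0% for FOSL2, by keeping only as many 48 h peaks as the shorter list has. The PHF10 share was 45.2% with an overlap of 50%, 44.4% at the middle base and 47.2% over 1 kb from 0 h peaks. Leaving out a PHF10 replicate gave between 50.3% and 89.1%, the highest without 48 h replicate 1. The H3K18ac share stayed within its interval in all 7 alternatives. Peaks on all sequences gave the same counts. The alternatives were run for H3K4me1-only peaks alone, so these shares have no background. The log2 difference in PHF10 numbers was 7.35, with p = 0.5 in an exact sign-flip test with the replicate block, the smallest that 2 pairs allow. It was 4.83 at equal list length and 1.00 with a fold of at least 5 (3 and 4 peaks at 48 h, against 3 and 1 at 0 h), and between 6.15 and 8.54 without 1 replicate. It had no value at a −log10 q of at least 5, where a 0 h library had 0 peaks against 78 and 276 at 48 h. The replicate numbers were not taken as pairs: over 20179 H3K4me1 peaks, the differences between the replicates at 0 and 48 h correlated at -0.034 as calls and at 0.117 as log2 folds with 0 where not called, and the labels name no shared culture or day. The cause of these shifts was not tested, and the unknown depth limits every share.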
